A study of Mus musculus with 12 samples.

Results

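ZFAT peaks of floxed thymocytes were set against ZFAT peaks of B6 thymocytes, position by position, in mouse build mm9. The floxed list held 1719 peaks and the B6 list, called against input DNA, held 2000, out of 21883 peaks in the 7 lists of the series. A peak that overlapped one in the opposite list, by 1 bp or more, was counted as recurrent, and any other as line-specific. By that rule 142 floxed peaks and 146 B6 peaks were recurrent, and 1577 floxed and 1854 B6 peaks were line-specific.

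The study mapped ZFAT, H3K9me3 and H3K9ac/K27ac by ChIP-seq in mouse thymocytes. Floxed thymocytes came from Zfatf/f mice without Cre, whose Zfat alleles carry recombination sites. B6 thymocytes came from C57BL/6 mice. Per the labels' protocols, animals of both groups were 4 to 5 weeks old, cells were fixed with 1% formaldehyde for 10 min, and chromatin was cut with 375 units of micrococcal nuclease for 0.5 h before sonication. The same monoclonal ZFAT antibody is described for all ZFAT libraries. Neither group carried Cre, so no deletion of Zfat is designed in either. Each group had 1 ZFAT library, the number of animals behind a library is not given in the labels, and the genetic background of the floxed mice is not given either. Differences between the lists therefore compare 2 libraries, not 2 genotypes, and no p-value is given. Peak lists hold no expression values, so the labelled cell type could not be checked against markers. Lck-Cre thymocytes, from Zfatf/f-LckCre mice also 4 to 5 weeks old, enter below only through the peaks of their 1 ZFAT library. In these mice Cre is designed to delete the floxed Zfat sequence.

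ZFAT is a nuclear protein with zinc fingers and an AT-hook, a pair of features found in proteins that contact DNA. In the mouse it is known for a role in the development and survival of T cells in the thymus. A peak in such an experiment is a stretch of the genome where more precipitated fragments piled up than the local background would give, and its summit is the base where the pile is highest.

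The depth behind a peak was uneven between the lists. For every peak below the score ceiling of 323.3, the fold and the P score (the −log10 of the caller's p) together gave a whole fragment number at the summit, called the pileup here. The lowest background in each list implied about 1510000 fragments in the floxed library and 632000 in the B6 library. A ceiling score was listed for 23 floxed and 18 B6 peaks, for which the pileup is not known. The control behind the floxed list is not named in its header, so scores and folds were ranked within a list and not subtracted between lists.

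Recurrence was uncommon in both lists. In the floxed list 8.26% of peaks were recurrent (142 of 1719, exact 95% interval 7.0% to 9.66%), and in the B6 list 7.3% were (146 of 2000, 6.20% to 8.53%). Floxed peaks covered 359288 bp and B6 peaks 398497 bp, and the 47662 bp common to both made up 13.3% of the floxed and 11.96% of the B6 covered length. The overlapping peaks formed 146 pairs, because 4 floxed peaks were each overlapped by 2 B6 peaks while no B6 peak was overlapped by more than 1 floxed peak. For these 4 the B6 peak with the nearer summit was kept, which left 142 pairs for the comparison of summits and edges. Recurrent peaks of both lists are by definition the same overlapping sites. Similar values for them in both lists are therefore not independent observations.

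Summits of the 142 pairs lay close together. The median distance between a floxed summit and its B6 partner was 16.5 bp (95% interval of the median 11 to 21), with quartiles of 5 and 36 bp and a highest value of 273 bp. The distance was at most 10 bp in 58 pairs, at most 50 bp in 119 and at most 100 bp in 129, and both libraries gave the same summit base in 3. The offset had no preferred side, since the B6 summit lay at the higher coordinate in 71 pairs and at the lower in 68, with a median offset of 0.5 bp. Each summit lay inside the partner peak in 132 of 142 pairs. Overlap by itself limits how far apart summits can be, so these distances describe the pairs and do not test them.

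**Figure D1:**
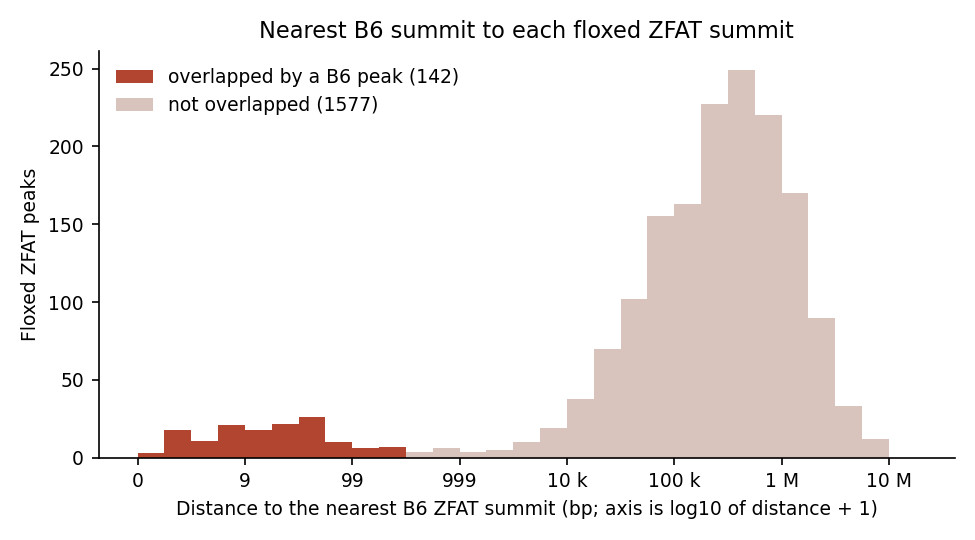
Number of floxed ZFAT peaks (vertical axis) by distance in bp from their summit to the nearest B6 summit (horizontal axis, log10 of distance + 1), with the 142 recurrent peaks dark and the 1577 line-specific peaks pale. The 142 recurrent peaks lie at or below 273 bp, and 1164 of the line-specific peaks lie over 100 kb from any B6 summit.

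Taken over all 1719 floxed peaks, without regard to overlap, the nearest B6 summit was at most 50 bp away for 119 and between 50 and 200 bp away for 18. It lay between 200 and 1000 bp for 15 peaks and between 1 and 10 kb for 38. The rest, 1529 peaks, had no B6 summit within 10 kb. Distances thus fell into a near group under 200 bp and a far group beyond 10 kb, with few peaks in between. Among line-specific peaks the median distance to the nearest summit of the other list was 302424 bp for floxed peaks and 340598.5 bp for B6 peaks, and the lowest value was 351 bp in both.

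Summits agreed more closely where both libraries scored high. In the 66 pairs with a P score of at least 20 in both lists, the median distance was 7 bp (interval 5 to 10), the highest 74 bp, and 65 pairs were within 50 bp. In the other 76 pairs the median was 32.5 bp (22 to 37), and 13 of them were over 100 bp apart. These 2 intervals of the median did not overlap.

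Pairs of overlapping peaks from other antibodies gave a scale for these distances. ZFAT and H3K9me3 summits of overlapping peaks were a median of 19 bp apart for floxed ZFAT (77 pairs) and 19.5 bp for B6 ZFAT (146 pairs), close to the 16.5 bp between the ZFAT libraries. ZFAT and H3K9ac/K27ac summits were further apart, with medians of 32 bp for floxed (443 pairs) and 36.5 bp for B6 ZFAT (384 pairs). Acetylation peaks are wider, with a median of 290 bp against 172 bp for floxed ZFAT and 171 bp for B6 ZFAT and H3K9me3. Overlap lets summits of wider peaks lie further apart, but the part of width in these distances was not tested. H3K9me3 and H3K9ac/K27ac summits were a median of 21 bp apart over 105 pairs. Floxed and Lck-Cre ZFAT summits were a median of 12 bp apart over 31 pairs. A short summit distance among overlapping peaks was thus not limited to pairs from the ZFAT antibody.

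**Figure D2:**
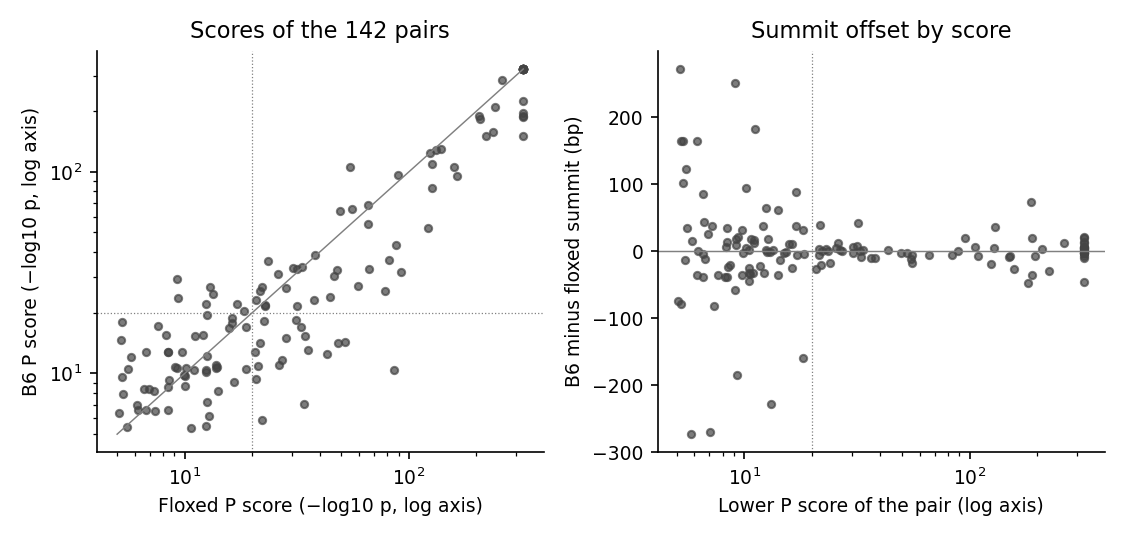
Left, P score of the B6 peak against that of the floxed peak for the 142 pairs (both axes −log10 p on log axes, line of equal values drawn); right, B6 minus floxed summit position in bp against the lower P score of the pair (log axis). Dotted lines mark a score of 20, above which offsets stay between -47 and 74 bp.

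In 18 pairs both peaks were at the score ceiling. The 5 of these with the highest B6 fold are given here, each with an H3K9ac/K27ac peak. Ranking by B6 fold favours pairs whose fold is higher in B6. Among all 142 pairs the fold was higher in the floxed list in 62. At the ceiling pair chr2:153474730-153476162, not among the 5, the folds were 298 in floxed and 227 in B6 thymocytes. At chr7:134919978-134921457 in the floxed list, the fold was 311 in floxed and 563 in B6 thymocytes, and the summits were 14 bp apart. At chr9:99468648-99469455 the folds were 278 in floxed and 494 in B6 thymocytes, with summits 3 bp apart. At chr12:114238086-114238993 they were 179 in floxed and 356 in B6 thymocytes, with summits 7 bp apart. The other pairs of the 5, at chr11:99091356-99092418 and chr10:88193951-88194637, had folds of 208 and 204 in floxed and 280 and 279 in B6 thymocytes. Their summits differed by 46 and 3 bp. All 5 also had an Lck-Cre ZFAT peak, from thymocytes in which Cre is designed to delete the floxed Zfat sequence, and a B6 peak called against IgG.

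The 3 pairs with identical summits ran from ceiling peaks to a high-background site. At chr15:3945380-3945839 both peaks were at the ceiling, with folds of 51.6 in floxed and 74.4 in B6 thymocytes. At chr9:48288325-48288700 the pileup was 52 fragments in floxed (exact Poisson 95% interval 38.8 to 68.2) and 41 in B6 thymocytes (29.4 to 55.6), over backgrounds of 2.72 and 2.98. At chr11:3035577-3035742 the pileup was 172 in floxed and 90 in B6 thymocytes, over high backgrounds of 74.1 and 22.4, and that pair carried an H3K9me3 peak and no H3K9ac/K27ac peak. A control background of 20 or more, the level called high here, was found at 9 of the 142 recurrent floxed and 9 of the 146 recurrent B6 peaks, against 3 line-specific floxed peaks and 1 line-specific B6 peak. Its part in the recurrence of these peaks was not tested.

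The largest offset among pairs scoring at least 20 in both lists was 74 bp, at chr9:122930191-122930887. There the floxed peak was at the ceiling with a fold of 154, and the B6 peak had a P score of 186 and a fold of 49.8. The next was 47 bp at chr16:57606587-57607133, where the pileup was 171 fragments in floxed and 121 in B6 thymocytes. At chr19:46764434-46764644 the offset was 42 bp, with pileups of 77 in floxed and 32 in B6 thymocytes. At chr10:79862038-79862204 it was 39 bp, with pileups of 30 in floxed and 22 in B6 thymocytes. These offsets stayed below the 150 bp fragment length that the headers give.

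Peak edges agreed as well as summits in many pairs. The shared stretch made up a median of 84.7% of the joint length of a pair (quartiles 72.0% and 93.6%), and 1 peak lay wholly inside the other in 93 of 142 pairs. Start positions differed by a median of 16.5 bp and end positions by 20.5 bp. Both ends were within 10 bp of each other in 24 pairs. An identical start was found in 17 pairs, an identical end in 14, and either in 27 (19.0%, 12.9% to 26.4%).

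In 4 pairs both ends were the same base. The pair at chr9:99468648-99469455, 808 bp long, is among the strongest of both lists. The pair at chr16:57391595-57391773 had pileups of 279 in floxed and 198 in B6 thymocytes, over high backgrounds of 42.8 and 33.5. The pair at chr2:4840084-4840254 had pileups of 33 in floxed and 14 in B6 thymocytes, with summits 13 bp apart and an H3K9ac/K27ac peak. The weakest was at chr7:71697344-71697503, where a pileup of 5 fragments in floxed and 3 in B6 thymocytes gave P scores of 8.41 and 6.58, and the summits were 39 bp apart.

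Exact edges were also found between lists of other kinds, but not in every comparison. An edge was shared by 20 of 443 floxed ZFAT peaks (4.51%) with their H3K9ac/K27ac partner and by 10 of 77 (13.0%) with their H3K9me3 partner. For B6 ZFAT peaks these figures were 24 of 384 (6.25%) and 22 of 146 (15.1%). H3K9me3 and H3K9ac/K27ac peaks shared an edge in 13 of 105 pairs (12.4%, 6.76% to 20.2%). Floxed and Lck-Cre ZFAT peaks, from the same antibody, shared an edge in 0 of 31 pairs (0% to 11.2%). The B6 lists called against IgG and against input come from the same ChIP library, and 220 of 290 such pairs (75.9%) shared an edge, with a median summit distance of 0 bp. The 19.0% of floxed and B6 pairs lay above the values for ZFAT with acetylation. Acetylation peaks are wider, and the part of width in that was not tested. That share of 19.0% lay well below the value for 1 library called against different controls. Its interval overlapped those for ZFAT with H3K9me3 and for H3K9me3 with acetylation, and lay above that for floxed with Lck-Cre ZFAT.

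Recurrence followed the strength of a peak in the same way in both lists. Below a P score of 10, 29 of 1038 floxed peaks (2.79%) and 27 of 1164 B6 peaks (2.32%) were recurrent. From 10 to 20 the shares were 5.11% of floxed and 5.97% of B6 peaks, and from 20 to 50 they were 54.0% (34 of 63) and 56.6% (30 of 53). At 50 or more, 50 of 51 floxed peaks (98.0%, 89.6% to 99.95%) and 45 of 46 B6 peaks (97.8%, 88.5% to 99.9%) were recurrent. The step between a score under 20 and over 20 exceeded the counting intervals in each list.

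**Figure D3:**
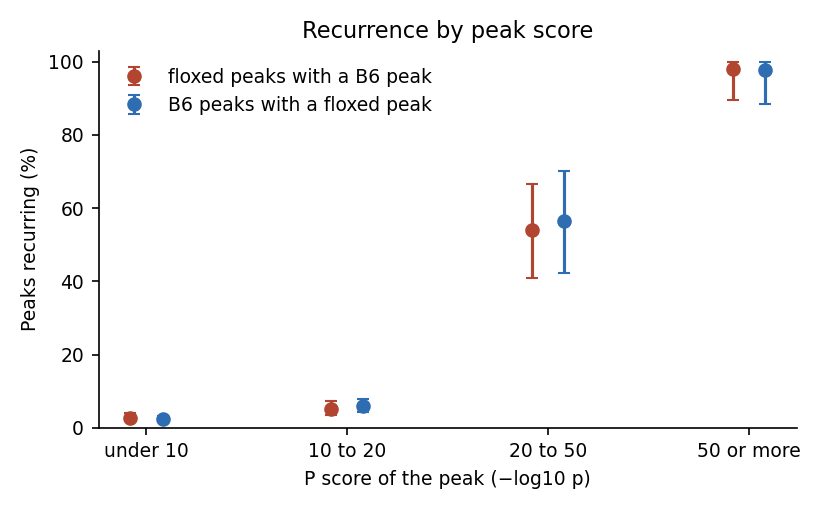
Share of peaks with a partner in the other list (%, vertical axis) by P score class (−log10 p, horizontal axis), for floxed peaks on the left and B6 peaks on the right of each class; points are shares, and bars are exact 95% intervals for counting error. Both lists go from under 3% below a score of 10 to about 98% at 50 or more.

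Sorted by fragments instead of score, recurrence set in at a lower pileup in the shallower B6 library. Of peaks with 11 to 20 fragments, 28 of 606 floxed (4.62%, 3.09% to 6.61%) and 38 of 271 B6 peaks (14.0%, 10.1% to 18.7%) were recurrent. With 21 to 40 fragments the shares were 50.6% of 77 floxed and 81.3% of 32 B6 peaks. With at most 5 fragments, 7 of 467 floxed and 8 of 950 B6 peaks were recurrent. Recurrent peaks under the ceiling had a median pileup of 27 in the floxed and 17 in the B6 list, against 9 and 5 for line-specific peaks.

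The order of strength was similar in the 2 libraries. Across the 142 pairs Spearman's rho was 0.85 for P score, with ceiling peaks counted as ties, and 0.78 for width. Over the 119 pairs below the ceiling in both lists it was 0.76 for P score and 0.90 for the pileup. These are descriptions across regions of 2 libraries, and regions are not replicates. The 18 B6 ceiling peaks were all paired with floxed ceiling peaks, and 5 further floxed ceiling peaks had a B6 partner below it.

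Recurrent peaks were wider than line-specific ones. Their median width was 279 bp in the floxed list (quartiles 185.5 and 452.5, interval of the median 240 to 323) and 251.5 bp in the B6 list (187.25 and 437.5, interval 209 to 294). Line-specific peaks had a median of 170 bp in each list, with intervals of 169 to 172 and 169 to 171. Peaks over 300 bp made up 45.8% of recurrent and 6.98% of line-specific floxed peaks, and 40.4% of recurrent and 4.80% of line-specific B6 peaks. Over 500 bp there were 30 recurrent and 5 line-specific floxed peaks, and 28 recurrent and 1 line-specific B6 peak. A wider peak has more bases with which to meet a partner, so width is not independent of the overlap rule.

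Width and score moved together, and the width difference was smaller among weak peaks. Below a P score of 20, the medians of recurrent and line-specific peaks differed by 45.5 bp in the floxed and 26 bp in the B6 list. In that range 2.16% of floxed peaks up to 200 bp, 6.81% of those over 200 and up to 300 bp and 10.8% of the wider ones were recurrent. The B6 list gave 2.69%, 6.88% and 11.1% for the same classes. At scores of 20 or more, 52 of 55 floxed and 48 of 49 B6 peaks over 300 bp were recurrent, against 17 of 36 floxed and 13 of 25 B6 peaks up to 200 bp.

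Within a pair the widths differed little at the median. The floxed peak was wider in 78 pairs, the B6 peak in 59 and neither in 5. The median of floxed minus B6 width was 5 bp (interval -1 to 14, quartiles -19.75 and 62). In the 66 pairs scoring at least 20 in both lists, the floxed peak was wider in 42 and the B6 peak in 22. There the median was 14 bp (interval 1 to 40). The largest excess, 1393 bp, was at chr17:39980639-39983317, a 2679 bp floxed peak over a control background of 184, which the B6 list split into peaks of 1225 and 1286 bp. Of the 3 other floxed peaks that met 2 B6 peaks, that at chr2:153474730-153476162 held a B6 ceiling peak 5 bp from its own summit and a second with a pileup of 69 fragments, 515 bp away. At chr7:134919978-134921457 the second B6 peak had only 11 fragments, 569 bp from the floxed summit. At chr12:75009029-75009487 the floxed summit lay between 2 B6 summits, 159 and 175 bp away, with B6 pileups of 25 and 10.

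**Figure D4:**
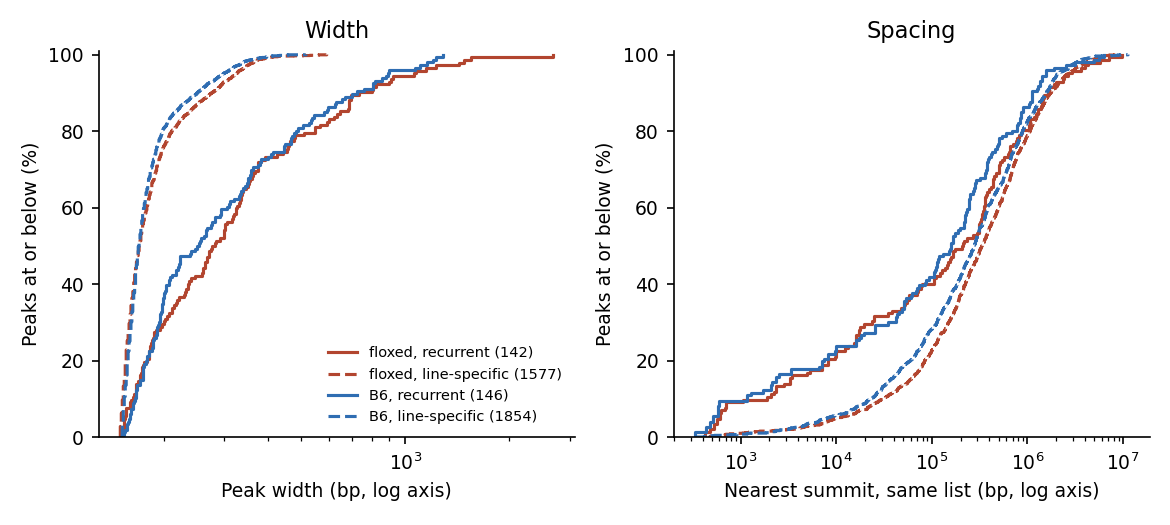
Cumulative share of peaks (%, vertical axes) by peak width (left) and by distance from a summit to the nearest other summit of the same list (right), both in bp on log axes; solid lines are recurrent and dashed lines line-specific peaks, red for floxed and blue for B6. Recurrent peaks lie to the right in width (medians 279 and 251.5 bp against 170 bp) and to the left in spacing below 10 kb.

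Recurrent peaks more often had a close neighbour in their own list. A second summit lay within 10 kb for 32 of 142 recurrent floxed peaks (22.5%, 16.0% to 30.3%) and 78 of 1577 line-specific ones (4.95%, 3.93% to 6.13%). Among B6 peaks it did for 35 of 146 recurrent (24.0%, 17.3% to 31.7%) and 107 of 1854 line-specific peaks (5.77%, 4.75% to 6.93%). Within 1 kb the counts were 13 recurrent and 17 line-specific floxed peaks, and 14 recurrent and 16 line-specific B6 peaks. Median spacing was 208671.5 bp for recurrent and 333234 bp for line-specific floxed peaks, and 157907 bp for recurrent and 276929 bp for line-specific B6 peaks.

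The difference in close neighbours was larger among strong than among weak peaks. At P scores of 20 or more, 35.7% of 84 recurrent and 16.7% of 30 line-specific floxed peaks had a neighbour within 10 kb. Among B6 peaks 36% of 75 recurrent and 8.33% of 24 line-specific ones did. Strong floxed peaks with and without such a neighbour recurred at 85.7% (69.7% to 95.2%) and 68.4% (56.9% to 78.4%). For B6 peaks these shares were 93.1% (77.2% to 99.2%) and 68.6% (56.4% to 79.1%), so the intervals overlapped in each list. Below 20 the direction turned in the floxed list, with 3.45% of 58 recurrent and 4.72% of 1547 line-specific peaks. In the B6 list the shares below 20 were 11.3% of 71 recurrent and 5.74% of 1830 line-specific peaks. Neither of these last differences exceeded the counting interval of the recurrent share.

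Linking summits up to 10 kb apart gave 51 floxed clusters with 110 peaks and 66 B6 clusters with 142 peaks. No member recurred in 32 floxed and 48 B6 clusters, all members did in 8 and 14, and some did in 11 and 4. Among clustered peaks 29.1% of floxed and 24.6% of B6 peaks were recurrent, against 6.84% and 5.97% of lone peaks. The floxed clusters with most members held 4 peaks each, at chr17:39980014-39985746 with 3 recurrent, and at chr6:113256673-113269320, chr7:20143242-20158911 and chr7:134910976-134921457 with 2 recurrent each. The B6 cluster with most members, 6 peaks at chr11:3027473-3050372, held 1 recurrent peak.

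Where neighbouring peaks were both recurrent, their spacing could be set side by side in the libraries. A difference in spacing is the difference of the pairs' summit offsets, which overlap keeps small, so these values describe the sites and are no separate evidence of agreement. There were 13 neighbouring pairs within 10 kb, spaced by 424 to 9989 bp in the floxed list. Their spacing differed between the libraries by 1 to 47 bp, with a median of 14 bp, and by at most 10 bp in 6 of 13. The summits starting at chr11:40505777-40506132 were 2364 bp apart in floxed and 2365 bp in B6 thymocytes. Those starting at chr19:56622315-56622615 were 605 bp apart in floxed and 597 bp in B6 thymocytes, and those starting at chr8:59029425-59029716 were 571 and 575 bp apart. The largest difference, 47 bp, was at chr2:91550324-91550623, with 526 bp in floxed and 479 bp in B6 thymocytes.

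Recurrent peaks were found on 18 chromosomes and were missing from 2 that held peaks in both lists. Chromosome 11 had the highest share in each list, at 19 of 114 floxed (16.7%, 10.3% to 24.8%) and 19 of 146 B6 peaks (13.0%, 8.02% to 19.6%). That chromosome also held more high-scoring peaks than any other, 15 floxed and 17 B6 ones that reached a score of 20. Whether its share differs from that of other chromosomes at equal scores was not tested. Chromosome 2 held 16 of 152 floxed and 17 of 151 B6 peaks. The 5 chromosomes with 10 or more recurrent floxed peaks held 65 of the 142. Most intervals of single chromosomes included the list's own share of 8.26% or 7.3%.

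On chromosome 3 none of 64 floxed and none of 93 B6 peaks recurred, which by the exact interval allows shares of up to 5.60% and 3.89%. On chromosome X none of 56 floxed and none of 32 B6 peaks did, which allows up to 6.38% and 10.9%. Few strong peaks lay there: at a P score of 20 or more, chromosome 3 had 0 floxed and 2 B6 peaks, and chromosome X had 1 floxed and 0 B6 peaks. With the B6 list called against IgG in place of that against input, chromosome 3 held a recurrent peak, and the chromosomes without one were 18 and X.

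Peak density also varied by chromosome. Over the stretch spanned by the peaks of all lists, autosomes had 4.09 to 9.62 floxed peaks per 10 Mb (median 6.75) and 4.95 to 12.3 B6 peaks per 10 Mb (median 8.28), with chromosome 11 highest in each. Chromosome X had 3.44 floxed and 1.96 B6 peaks per 10 Mb. Chromosome Y held 0 floxed and 2 B6 peaks. The sex of the animals is not given in the labels.

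**Figure D5:**
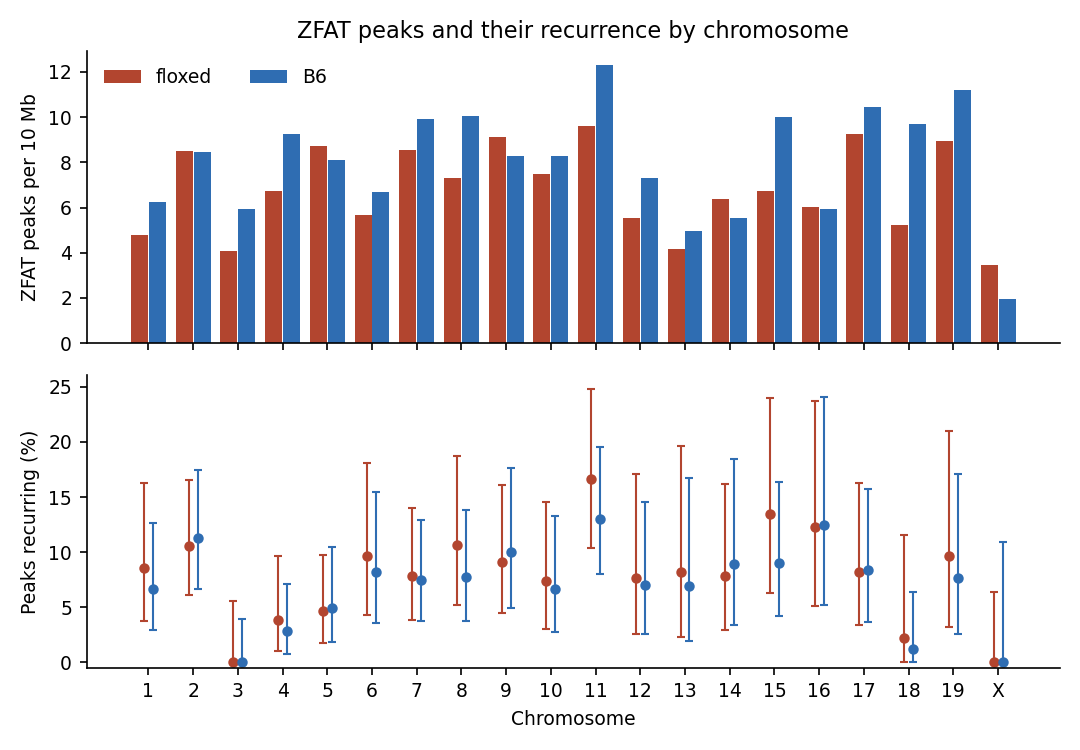
Top, ZFAT peaks per 10 Mb by chromosome, floxed (red) left of B6 (blue); bottom, share of peaks with a partner in the other list (%), with exact 95% intervals for counting error as bars. Of the chromosomes drawn, which leave out Y, chromosome 11 is highest in both lists for density (9.62 and 12.3) and for recurrence (16.7% and 13.0%), and chromosomes 3 and X have no recurrent peak.

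Acetylation mapped in floxed thymocytes was more frequent at recurrent than at line-specific peaks in both lists. H3K9ac/K27ac, found at active promoters and enhancers, had a peak at 25.8% of all floxed and 19.2% of all B6 ZFAT peaks. It did at 89 of 142 recurrent (62.7%, 54.2% to 70.6%) and 354 of 1577 line-specific floxed peaks (22.4%, 20.4% to 24.6%). Among B6 peaks it did at 90 of 146 recurrent (61.6%, 53.2% to 69.6%) and 294 of 1854 line-specific peaks (15.9%). The B6 shares rest on acetylation from the floxed line, since B6 acetylation is not analysed here. The recurrent shares of both lists thus describe the same sites against the same acetylation list.

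Among weak peaks the acetylated ones recurred more often. Below a P score of 20, 34 of 375 acetylated floxed peaks (9.07%, 6.36% to 12.4%) and 24 of 1230 others (1.95%, 1.25% to 2.89%) were recurrent. In the B6 list 40 of 327 acetylated peaks (12.2%) and 31 of 1574 others (1.97%) were. The intervals of acetylated and other peaks below 20 did not overlap in either list. At 20 or more, 55 of 68 acetylated floxed peaks (80.9%, 69.5% to 89.4%) and 29 of 46 others (63.0%, 47.5% to 76.8%) recurred, with overlapping intervals. In the B6 list 50 of 57 (87.7%, 76.3% to 94.9%) and 25 of 42 (59.5%, 43.3% to 74.4%) did, and these intervals did not overlap. When recurrence was taken from the B6 list called against IgG, 75.8% of recurrent and 23.0% of line-specific floxed peaks were acetylated.

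H3K9me3, a mark of silenced chromatin, was sparse in both classes. It had a peak at 4.48% of all floxed and 7.3% of all B6 ZFAT peaks. Counts were 11 of 142 recurrent and 66 of 1577 line-specific floxed peaks, and 12 of 146 recurrent and 134 of 1854 line-specific B6 peaks. The intervals of the recurrent shares, 3.93% to 13.4% in the floxed list and 4.32% to 13.9% in the B6 list, included the line-specific shares of 4.19% and 7.23%. Among ZFAT peaks with H3K9me3, 11 of 77 floxed and 12 of 146 B6 ones recurred. With neither mark 42 of 1201 floxed and 44 of 1477 B6 peaks did, with lower intervals that did not overlap. At P scores of 20 or more the H3K9me3 counts were 9 of 10 floxed and 10 of 12 B6. With neither mark they were 20 of 36 and 15 of 31. Below 20 the H3K9me3 counts were 2 of 67 and 2 of 134, against 22 of 1165 and 29 of 1446. The intervals overlapped within each score class.

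ZFAT peaks of Lck-Cre thymocytes met 1.8% of all floxed and 1.6% of all B6 peaks, and nearly all of those were recurrent. The counts were 29 recurrent and 2 line-specific floxed peaks, and 30 recurrent and 2 line-specific B6 peaks. B6 peaks called against IgG met 5.29% of all floxed and 14.5% of all B6 peaks. They met 82 of 142 recurrent and 9 of 1577 line-specific floxed peaks, so those 9, of which 2 had a P score of at least 20, did have a peak from the same B6 ChIP library under the other control. Among B6 peaks they met 84 of 146 recurrent (57.5%) and 206 of 1854 line-specific ones (11.1%).

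Strong line-specific peaks were few. With a P score of at least 20, 30 of 114 floxed (26.3%, 18.5% to 35.4%) and 24 of 99 B6 peaks (24.2%, 16.2% to 33.9%) had no partner. Their median widths were 191 bp in the floxed and 202.5 bp in the B6 list, against 170 bp over all line-specific peaks of each list, and their median pileups were 19 and 11.5 fragments. Of these, 13 floxed and 7 B6 peaks carried H3K9ac/K27ac, and 1 and 2 carried H3K9me3.

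The highest-scoring line-specific peak of each list stood on a high control background. In the floxed list it was at chr5:147072580-147072922, with a pileup of 202 over a background of 32.6, H3K9me3 and an Lck-Cre ZFAT peak. In the B6 list it was at chr2:98507234-98507459, with a pileup of 2837 over a background of 1523 and a fold of 1.86, again with H3K9me3 and an Lck-Cre ZFAT peak. Each was the only line-specific peak of its list with a P score of at least 50.

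The next strongest floxed peaks differed from one another. That at chr17:39984770-39984919 had 248 fragments over a background of 86.3 and a B6 summit 693 bp away. The peak at chr7:20158508-20158911 had a pileup of 43 (31.1 to 57.9) over a background of 2.72, carried H3K9ac/K27ac, and lay 7552 bp from the nearest B6 summit. At chr14:31941913-31942118 the pileup was 20 with neither mark, and at chr1:165924717-165924887 it was 18 with H3K9ac/K27ac. Both of these had backgrounds under 1.

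In the B6 list the peak at chr5:24191816-24192034 had a pileup of 30 (20.2 to 42.8), H3K9ac/K27ac, and no floxed summit within 277365 bp. At chr6:113327469-113327734 a pileup of 13 lay 643 bp from a floxed summit, also with H3K9ac/K27ac. The peaks at chr15:30165392-30165630 and chr4:122793443-122793729 each had 12 fragments (6.20 to 20.96) and neither mark. None of these 4 had a B6 peak called against IgG.

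Few pairs lay near the limit of the rule. The pairs with the fewest shared bases overlapped by 38 bp at chr12:75009029-75009487, 47 bp at chr8:69553469-69553620 and 78 bp at chr11:84632433-84632747. The nearest peaks that did not overlap were separated by 156 bp at chr14:27489466-27489650, 175 bp at chr11:94744386-94744536 and 203 bp at chr17:39984770-39984919. At the chromosome 14 site the B6 neighbour was a ceiling peak with a fold of 62.1. No floxed line-specific peak had a B6 peak within 100 bp of its edge, 9 had one within 500 bp and 52 within 10 kb.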

How the data were processed

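ZFAT ChIP-seq peaks of 1 floxed and 1 B6 library were analysed as deposited. The authors called peaks with MACS in mm9, per library and not on pooled libraries, per the submitters' processing notes, which list SAMtools 0.1.18, Trimmomatic 0.22 and CASAVA 1.8.1 too. Neither the aligner nor the MACS version is given in the sources used here. Calling used, per the file headers, a 150 bp fragment length, an effective genome of 1870000000 bp and a p threshold of 1e-05. The deposited P and Q scores are −log10 values, and the deposited fold is a ratio over local background that the authors computed; Q was not used.

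Coordinates were read as 1-based and closed, and overlap meant at least 1 bp. Shares carry exact Clopper-Pearson 95% intervals, medians carry distribution-free 95% intervals, and pileups carry exact Poisson 95% intervals. All cover counting error only. An upper limit for a share of 0 is the upper end of its exact interval. Pileups were solved from fold and P score with a tolerance of 0.0001 on the score, assuming a fold of (pileup + 1)/(background + 1). The solver was tested on data simulated with that same formula, which cannot test the formula itself. In the deposited lists a whole pileup was found for all 1696 floxed and 1982 B6 peaks below the ceiling. The depths are inferred.

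Named regions were taken by rank of P score, summit distance, shared bases or gap on standard chromosomes. Members, lists and rules were chosen with earlier results of these data known. Gene names and sequences at the peaks are not reported here, since the reference tables used another build. Alternatives were P score minima, other overlap rules, the B6 list called against IgG, and leaving out high-background peaks. Python 3.11.15, numpy 2.4.6, pandas 2.3.3, scipy 1.17.1 and matplotlib 3.10.9 were used.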

Additional observations from a re-analysis of the deposited data

How the results depend on the processing

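Of 54 summary values recomputed under other settings, 34 stayed close to the reported value, 19 left its interval and 1 changed sign. Close meant within that interval, except for the count of chromosomes without a recurrent peak, which has no interval. That count was 2 in every setting, but with the IgG list the chromosomes were 18 and X, not 3 and X. With P score minima of 10 and 20 in both lists, 15.0% and 57.9% of floxed and 12.6% and 68.7% of B6 peaks were recurrent, and the median summit distance was 10 and 7 bp. With the B6 list called against IgG, 5.29% of floxed and 21.8% of B6 peaks were recurrent, the summit distance was 10 bp, the acetylated share of recurrent minus line-specific peaks was 52.9 percentage points in floxed and 55.6 in B6, and the floxed width difference was 166 bp. Among peaks scoring 20 or more, the width difference was 164 bp in floxed and 178.5 bp in B6, the acetylated difference was 22.1 points in floxed, and the difference in neighbours within 10 kb was 27.7 points in B6. Among peaks scoring under 20, the width difference was 45.5 bp in floxed and 26 bp in B6, and the neighbour difference was 5.53 points in B6 and -1.27 in floxed, the value that changed sign. The cause was not tested. Of 14 named pairs, 12 had a peak in the IgG list and 8 kept their summit distance there. No paired analysis was possible because each group had 1 library, and for the same reason no library could be left out. At most 5 fragments lay under 29.2% of line-specific floxed and 50.8% of line-specific B6 peaks, and the part of depth in their recurrence was not tested.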

Other observations

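The assembled sequence was assumed to start megabases into each chromosome, and chromosome Y was left out. Within the first 200 kb of that sequence, as at chr9:3019100-3019446, there were 3 of 142 recurrent and 1 of 1577 line-specific floxed peaks. In the B6 list there were 3 of 146 recurrent and 8 of 1854 line-specific peaks.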
